A study of Mus musculus with 7 samples.

Results

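The genes described here act in the metabolism of ceramide, galactosylceramide and sphingosine-1-phosphate, and 1 encodes a receptor for sphingosine-1-phosphate. They were chosen by name, as 10 listed genes, with earlier results of these data known. Of these, 9 had a probe set assigned to that gene alone among the 9999 genes measured. The sphingosine kinase gene Sphk1 had none in the deposited values and was not analysed here. RNA came from RAW264.7 cells, a macrophage-like line from a mouse leukaemia, on 4 arrays labelled RAW GfI1-1, which the series title calls Gfi1 knockout, and on 3 arrays labelled RAW WT. All cells were untreated, grown in the same medium with serum and antibiotics, and labelled T0, a term the labels do not explain. The titles call the replicates biological. The labels do not give the edited part of Gfi1, the number of clones or whether the replicates were separate cultures. The p-values therefore cover the spread among these arrays alone, and that spread may be technical.

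Ceramide is the lipid at the centre of sphingolipid metabolism. Ceramide synthases make it by joining a fatty acid to a sphingoid base, each enzyme preferring fatty acids of certain lengths. Ceramidases release sphingosine from it, sphingosine kinases turn sphingosine into sphingosine-1-phosphate, and a lyase cleaves that product irreversibly. Sphingosine-1-phosphate also acts outside the cell through G protein-coupled receptors, which guide the movement of blood cells. In macrophages these lipids are tied to the lysosome, where much sphingolipid taken up with engulfed material is broken down.

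The targeted gene was not lower in the arrays labelled knockout. Its log2 signal was 4.93, 5.02, 3.97 and 3.97 in knockout replicates 1 to 4, against 2.66, 2.85 and 2.98 in wild type. The position of the probe set against the edit is not given in the sources used here, and a signal from an unedited stretch says nothing of the protein. The Gfi1 signal therefore gives no check of the labels, and every direction below depends on them. The arrays labelled knockout formed 2 pairs that no label separates. Over all genes the SD of the log2 difference was 0.14 between knockout replicates 1 and 2, 0.12 between replicates 3 and 4 and 0.50 to 0.51 between these pairs, while wild-type arrays differed by 0.11 to 0.17. Of 10 macrophage marker genes all were measured. Their summed signal on the linear scale was 21298 to 22237 in the arrays labelled knockout and 31056 to 31374 in wild type. Lyz2, the lysozyme gene, had the highest mean. By limma at an adjusted p of 0.05, 8 of the 10 were lower and 0 higher. Of all genes 21.6% were lower and 21.5% higher at that threshold. The part of this macrophage marker shift in the results on sphingolipid genes was not tested. None of the B cell, T cell, endothelial, epithelial or erythroid markers was among the genes measured, and of 5 fibroblast markers 1 was, Pdgfrb, whose signal exceeded that of 2.34% of genes in knockout and 6.89% in wild type.

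Of the 9 measured genes, 7 fell and 1 rose in the arrays labelled knockout, by limma with adjustment over all 9999 genes. Across all genes 43.1% passed the same threshold, an adjusted p of 0.05, with 21.5% higher and 21.6% lower. The median log2 difference of the 9 genes was -0.63, against -0.01 for all genes. The arrays labelled knockout lay wholly on 1 side of the wild-type arrays for 8 of the 9 genes, and for 54.5% of all genes. The genes were listed with earlier results of these data known, so this comparison with all genes is a description and not a test. The steps at which genes fell were the receptor, ceramide phosphorylation, breakdown, and 2 of the 4 ceramide synthases. The breakdown genes were Galc for galactosylceramide, Asah1 for ceramide and Sgpl1 for sphingosine-1-phosphate. With the wild-type arrays and each knockout pair as random blocks in limma, Asah1 and Sgpl1 did not pass (adjusted p = 0.0890 and 0.160). The fall of Sgpl1 rests on 1 of its 2 probe sets. In these bulk RNA samples, fewer cells with a transcript and less of it per cell cannot be told apart.

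**Figure D1:**
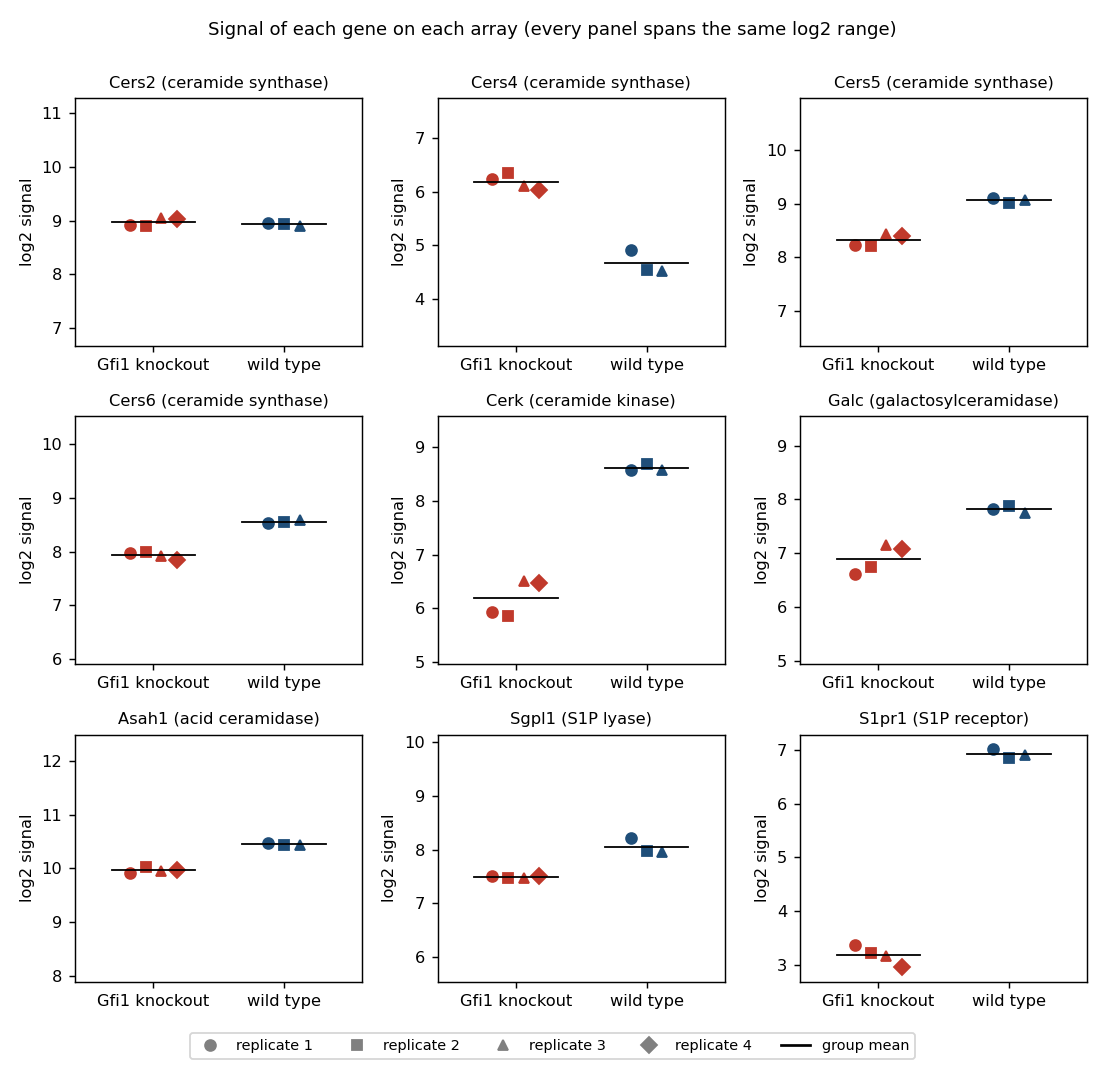
Log2 signal (vertical axis) of the 9 measured genes on each array, Gfi1 knockout (red, 4 arrays) beside wild type (blue, 3 arrays). Marker shapes give the replicate number, black lines the group means, and every panel spans the same number of log2 units. The groups are apart for every gene shown except Cers2, and S1pr1 shows the widest gap.

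The 4 ceramide synthase genes did not move together, with 1 higher, 2 lower and 1 that did not pass. Cers4, whose enzyme prefers long-chain fatty acids, was the 1 listed gene that rose. Its log2 signal was 6.23, 6.34, 6.10 and 6.03 in knockout replicates 1 to 4, against 4.92, 4.55 and 4.53 in wild-type replicates 1 to 3. Each array labelled knockout lay above each wild-type array, and wild-type replicate 1 was the highest of its group. The difference was 1.51 (SE 0.12, limma adjusted p = 0.000161), or 2.84-fold. The wild-type mean was low, above that of 11.9% of genes.

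Cers5 and Cers6, whose enzymes both make mainly palmitoyl-ceramide, both fell. Cers5 signal was 8.22, 8.22, 8.43 and 8.39 in the arrays labelled knockout, against 9.10, 9.01 and 9.07 in wild type. The groups did not overlap, and knockout replicates 1 and 2 lay furthest from wild type. Knockout minus wild type came to -0.74 on the log2 scale (SE 0.08, adjusted p = 0.000436). Cers6 signal was 7.97, 8.0, 7.92 and 7.84 in the arrays labelled knockout, against 8.53, 8.55 and 8.60 in wild type. Here too the groups were apart, and knockout replicate 4 was the lowest array. Cers6 differed by -0.63 on the log2 scale (SE 0.06, adjusted p = 0.000386).

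Cers2, which makes ceramides with very long fatty acids, was the listed gene that did not pass. Its signal was 8.91, 8.90, 9.05 and 9.02 in the arrays labelled knockout and 8.96, 8.94 and 8.90 in wild type. The groups overlapped, with the pairs of knockout arrays on either side of the wild-type mean. Their log2 means differed by 0.04 (SE 0.07, adjusted p = 0.669), with a 95% interval of -0.12 to 0.19.

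Ceramide kinase, encoded by Cerk, turns ceramide into ceramide-1-phosphate, and its gene fell strongly. Cerk signal was 5.94, 5.86, 6.51 and 6.47 in the arrays labelled knockout, against 8.58, 8.69 and 8.58 in wild type. All arrays labelled knockout were lower than all wild-type arrays, replicates 1 and 2 more so than replicates 3 and 4. Cerk differed by -2.42 on the log2 scale (SE 0.18, adjusted p = 0.000108), and wild type was 5.36-fold higher.

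The promoters of Cerk and Cers4 are shown because these genes changed most in each direction among the 7 members with an entry in the RefSeq promoter table of build GRCm38.p6. S1pr1 and Asah1 had none. Capitals mark the core of the motif known for Gfi1, AATC, on either strand (GATT when read on the other), and each window runs from 250 bases before to 50 after the gene's start. Cerk lies on chromosome 15, minus strand (chr15:86186092-86186391), and Cers4 on chromosome 8, plus strand (chr8:4493155-4493454).
Cerk: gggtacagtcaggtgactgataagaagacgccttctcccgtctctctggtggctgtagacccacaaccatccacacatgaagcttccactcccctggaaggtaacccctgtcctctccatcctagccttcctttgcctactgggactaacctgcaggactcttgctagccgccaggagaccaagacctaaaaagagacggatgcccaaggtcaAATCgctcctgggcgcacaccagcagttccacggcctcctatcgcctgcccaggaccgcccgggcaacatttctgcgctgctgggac
Cers4: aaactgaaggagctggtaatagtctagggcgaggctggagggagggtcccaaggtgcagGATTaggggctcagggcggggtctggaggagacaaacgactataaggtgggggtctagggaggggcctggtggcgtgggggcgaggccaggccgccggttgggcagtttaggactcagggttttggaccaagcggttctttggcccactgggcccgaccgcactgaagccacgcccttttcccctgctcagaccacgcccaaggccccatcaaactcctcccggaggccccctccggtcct
Each window holds this core 1 time, and 73.1% of 32851 promoters of the same length hold it at least once. The longer string AAATCA, which contains the core and was also sought on both strands, is in neither window and in 14.0% of all promoters. A match of this kind is a description of the letters and not a binding site. Across the 8 windows of the 7 members, AATC occurred in those of Cerk, Cers4, Cers6 and Sgpl1 and in 1 of the 2 of Cers2, and it is not in those of Cers5 and Galc.

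**Figure D2:**
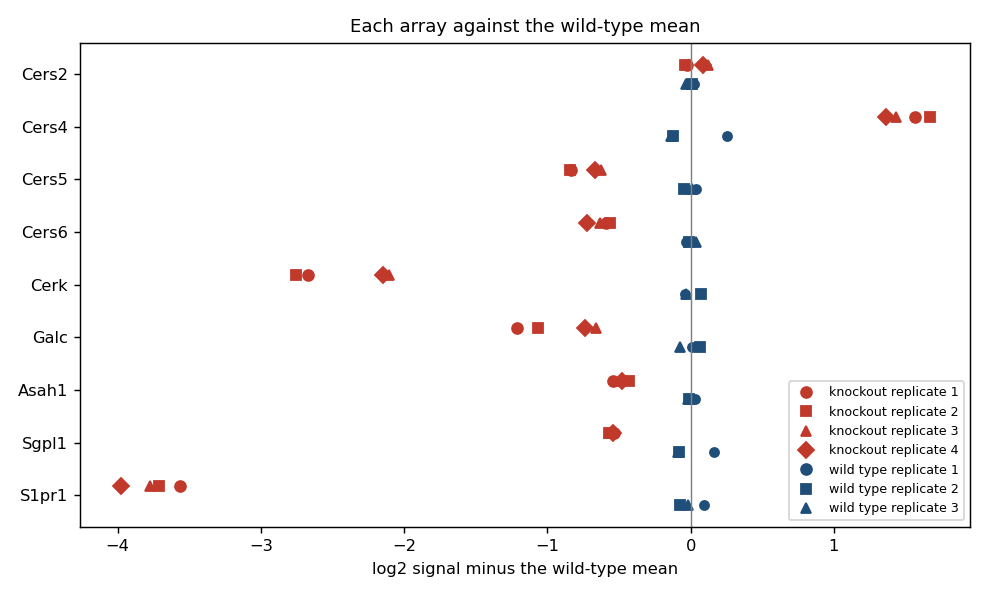
Log2 signal minus the wild-type mean (horizontal axis) for each array, with Gfi1 knockout arrays in red above wild-type arrays in blue for each gene. Marker shapes give the replicate number. Knockout replicates 1 and 2 lie apart from replicates 3 and 4 for Cerk (-2.67 and -2.76 against -2.11 and -2.15) and Galc, and together with them for Asah1 and Sgpl1.

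The 3 listed genes for breakdown enzymes were all lower in their brightest probe set. Galc encodes the lysosomal enzyme that removes galactose from galactosylceramide and is deficient in Krabbe disease. Its signal was 6.61, 6.75, 7.16 and 7.08 in the arrays labelled knockout, against 7.83, 7.88 and 7.74 in wild type. The groups did not overlap, and knockout replicates 1 and 2 were the lowest arrays. Galc differed by -0.92 on the log2 scale (SE 0.14, adjusted p = 0.00224), or by -0.42 with the mean of its probe sets (adjusted p = 0.00969).

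Asah1 encodes acid ceramidase, the lysosomal enzyme that is deficient in Farber disease. Its signal was 9.90, 10.02, 9.96 and 9.97 in the arrays labelled knockout, against 10.48, 10.44 and 10.42 in wild type. The 4 knockout values lay close together, and the pairs had nearly the same mean. The log2 difference was -0.48 (SE 0.06, adjusted p = 0.000722). When the wild-type arrays and each knockout pair were treated as random blocks it did not pass (adjusted p = 0.0890).

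Sgpl1 encodes sphingosine-1-phosphate lyase, the endoplasmic reticulum enzyme that ends the pathway. Its brighter probe set gave 7.51, 7.47, 7.48 and 7.50 in the arrays labelled knockout, against 8.21, 7.97 and 7.96 in wild type. The SD was 0.02 in knockout (n = 4) and 0.14 in wild type (n = 3), where replicate 1 stood highest, and the groups did not overlap. The log2 difference was -0.56 (SE 0.08, adjusted p = 0.00150). It did not pass with the pairs as random blocks (adjusted p = 0.160) or with the mean of its 2 probe sets (-0.05, adjusted p = 0.865).

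The dimmer Sgpl1 probe set ran the other way in 2 arrays. Its signal was 5.10, 5.24, 3.82 and 3.84 in the arrays labelled knockout, against 4.14, 4.0 and 3.98 in wild type. Knockout replicates 1 and 2 were above wild type and replicates 3 and 4 below it. In a fit over all probe sets its log2 difference was 0.46 (SE 0.39, adjusted p = 0.371), so the fall of Sgpl1 rests on 1 of its 2 probe sets.

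Of the other members with more than 1 probe set, Cers4 was higher in all 3. Its other probe sets gave log2 differences of 0.59 (SE 0.14, adjusted p = 0.0145) and 1.16 (SE 0.12, adjusted p = 0.000639). The second Cers5 probe set had means of only 1.62 in knockout and 2.44 in wild type, and the second Galc probe set 2.05 in knockout and 1.97 in wild type. Both lie below the limit of the lowest 5% of genes (3.49 in knockout and 3.51 in wild type), too dim to be told from background, and bear on neither gene.

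**Figure D3:**
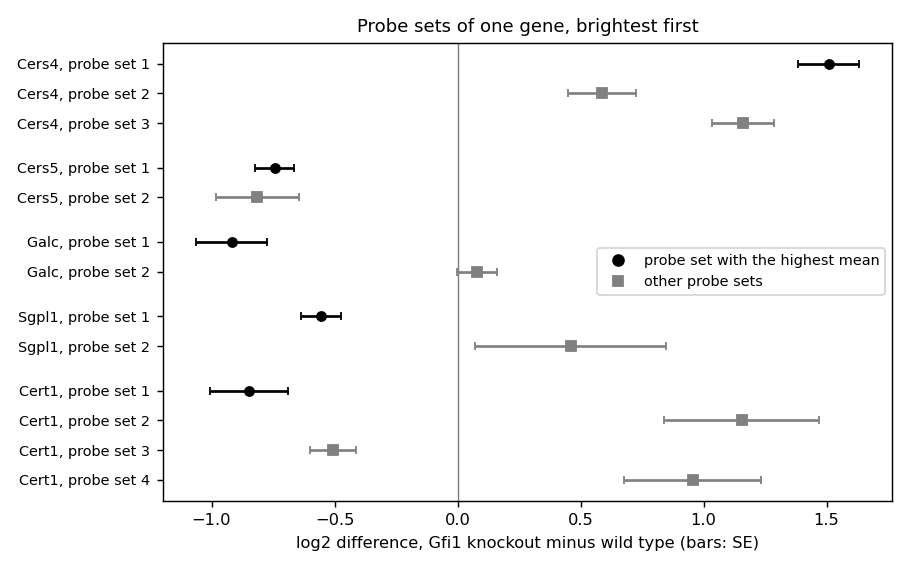
Log2 difference, Gfi1 knockout minus wild type, with its SE (horizontal axis) for each probe set of 4 listed genes and of the ceramide carrier gene Cert1, from a fit over all probe sets. Black circles are the brightest probe set of a gene and grey squares the others. All 3 probe sets of Cers4 lie above 0, those of Sgpl1 and Cert1 lie on both sides, and the second probe sets of Cers5 and Galc are too dim to be told from background.

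The receptor gene showed the largest difference of the 9 measured genes. S1pr1 encodes the G protein-coupled receptor through which lymphocytes follow sphingosine-1-phosphate out of lymphoid organs. Its log2 signal was 3.36, 3.22, 3.16 and 2.95 in the arrays labelled knockout, against 7.02, 6.86 and 6.91 in wild type. A gap of more than 3 log2 units separated the groups, and the 4 arrays labelled knockout were of similar level. The log2 difference was -3.76 (SE 0.10, adjusted p = 3.97e-06), and wild type was 13.5-fold higher. The knockout mean exceeded that of 3.67% of genes, so it lies where signal cannot be told from background, and the size of the fall is uncertain. With the pairs as random blocks the adjusted p was 0.000160.

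S1pr1 and Cers6 were slightly lower in knockout replicates 3 and 4, while Cerk, Galc and Cers5 were lower in replicates 1 and 2. The mean of replicates 1 and 2 minus that of replicates 3 and 4 was 0.24 for S1pr1, 0.10 for Cers6, -0.59 for Cerk, -0.44 for Galc and -0.19 for Cers5. These pairs were seen in the data and carry no label, so the differences were not tested. Without replicates 1 and 2, and without replicates 3 and 4, the same counts were found, with 7 of the 9 genes lower and 1 higher, and 57.0% and 68.1% of all genes passed. With the pairs as random blocks, 5 genes (S1pr1, Cerk, Cers5, Cers6 and Galc) were lower and Cers4 was higher, against 9.04% of all genes. All wild-type arrays were 1 block in that fit, so the spread between blocks in wild type could not be estimated. A single correlation within blocks, 0.79, served all genes. Adjusted p-values from the fit with random blocks may therefore be too small.

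Genes with the most similar pattern over the 7 arrays were found by Pearson correlation, which here mostly reflects the difference between the groups. For S1pr1 they were Plin2, a lipid droplet coat gene, Ctsd, the cathepsin D gene, and Hfe, a gene of iron balance, each with r = 0.999. For Cerk they were the transcription factor gene Nfix, Dnase1l1 and the annexin gene Anxa4, each with r = 0.999. For Cers4 they were Jade2 (r = 0.999), Rbpms (r = 0.998) and Nol11 (r = 0.998).

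The rest of the sphingolipid pathway was described through lists of 81 genes, of which 52 were measured. These lists too were chosen with earlier results of these data known, so their shares beside those of all genes are descriptions and not tests. By the brightest probe set of each gene 21 fell and 9 rose, or 57.7%, against 43.1% of all genes, and the median log2 difference was -0.24. With the pairs as random blocks 10 were lower and 2 higher, against 9.04% of all genes. The 10 were Sptssa, Smpdl3a, Naaa, B3galnt1, B4galnt1, Psap, Hexa, Gm2a, Gltp and Klf4, and the 2 were Plekha8 and Abcc1. The other named genes of these lists past the threshold had adjusted p-values of 0.0502 to 0.403 with those blocks.

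At the entry to ceramide synthesis 2 of 6 measured genes fell and 0 rose by their brightest probe set. That is 33.3%, fewer than the 43.1% of all genes. Sptssa, a small subunit of serine palmitoyltransferase, had 9.79, 9.92, 10.31 and 10.24 in the arrays labelled knockout, against 11.17, 11.30 and 11.26 in wild type. All arrays labelled knockout were lower, with a log2 difference of -1.18 (SE 0.14, adjusted p = 0.000674). The large subunit gene Sptlc1 fell less (-0.33, SE 0.07, adjusted p = 0.0109). The regulator gene Ormdl1 was at -0.05 (SE 0.05, adjusted p = 0.478). The brightest probe sets of Sptlc2, Kdsr and Degs1, named after their values were seen, did not pass (0.15, -0.45 and 0.05). In the fit over all probe sets, dimmer ones did, at -2.66, -1.19 and 0.40 (adjusted p = 0.00106, 0.0260 and 0.00884). For Sptlc2 and Kdsr the dimmer knockout means, 2.73 and 3.46, lie below the limit of the lowest 5% of genes.

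Of 7 measured genes of the sphingomyelin list 3 fell and 1 rose, or 57.1%, against 43.1% of all genes. Smpdl3a, listed as a relative of acid sphingomyelinase, encodes a phosphodiesterase, and these data do not show what it cleaves. Its log2 signal was 6.53, 6.30, 7.44 and 7.31 in the arrays labelled knockout, against 9.54, 9.56 and 9.47 in wild type. Its difference of -2.63 (SE 0.28, adjusted p = 0.000512) came with groups well apart, and as for Cerk, knockout replicates 1 and 2 were the lowest. The neutral sphingomyelinase gene Smpd2 fell by 0.49 (SE 0.07) and the sphingomyelin synthase gene Sgms1 by 0.41 (SE 0.06), both on the log2 scale. Samd8, which makes a ceramide phosphoethanolamine, rose by 0.33 (SE 0.06). Smpd4 stood at 0.12 (SE 0.11, adjusted p = 0.381), and without knockout replicates 3 and 4 it passed at 0.28 (adjusted p = 0.0132). When probe sets were averaged, Sgms1 and Samd8 did not pass (adjusted p = 0.299 and 0.0525).

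Beside Asah1, 2 of 3 other genes of the ceramidase list fell, against 21.6% of all genes. Naaa, a lysosomal amidase related to acid ceramidase in structure but known for cleaving N-acylethanolamines, was at -1.37 (SE 0.26, adjusted p = 0.00571). The alkaline ceramidase gene Acer3 stood at -0.37 (SE 0.09, adjusted p = 0.0153), and its call ended without wild-type replicate 2 or 3 (adjusted p = 0.0674 and 0.0606). A dimmer Acer3 probe set was at -1.36 in the fit over all probe sets (adjusted p = 0.0257), and the mean of its probe sets was at -0.72 (adjusted p = 0.0103). Asah2 stood at -0.11 (SE 0.11, adjusted p = 0.454).

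Of 8 measured genes for glycosphingolipid breakdown 5 were lower and 1 higher, against 21.6% and 21.5% of all genes. Of the 5, Psap, Hexa and Gm2a also passed with the pairs as random blocks. Psap, the precursor of the saposins that help lysosomal enzymes reach ceramide-containing lipids, including galactosylceramide for Galc, had 9.17, 9.16, 9.29 and 9.34 in the arrays labelled knockout, against 10.49, 10.37 and 10.39 in wild type. Its groups were well apart, at a log2 difference of -1.18 (SE 0.07, adjusted p = 5.17e-05). Hexa, a subunit of beta-hexosaminidase, fell by 0.95 (SE 0.09) and the GM2 activator gene Gm2a by 0.78 (SE 0.08). The sialidase gene Neu1 rose by 0.50 (SE 0.15, adjusted p = 0.0288), a call that ended without any 1 of the 3 wild-type arrays (adjusted p from 0.0710 to 0.0927) and without knockout replicate 1 or 2 (0.0558 and 0.0588). Without both of these arrays Neu1 was at 0.26 (adjusted p = 0.00650). Gba2, the gene of a glucosylceramidase outside the lysosome, stood at -0.16 (SE 0.09, adjusted p = 0.189).

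In glycosphingolipid synthesis 3 of 7 measured genes fell and 1 rose, or 57.1%, against 43.1% of all genes. B3galnt1, the globoside synthase gene, stood at -1.41 (SE 0.31), B4galnt1, which makes the gangliosides GM2 and GD2, at -0.92 (SE 0.07), and the lactosylceramide synthase gene B4galt5 at -0.56 (SE 0.10). The GM3 synthase gene St3gal5 rose by 0.38 (SE 0.06, adjusted p = 0.00205). Without knockout replicates 1 and 2 B3galnt1 was at -0.87 (adjusted p = 3.42e-05). B4galt5 did not pass with the mean of its probe sets (adjusted p = 0.175). Gal3st1 stood at 0.02 (SE 0.10, adjusted p = 0.878).

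**Figure D4:**
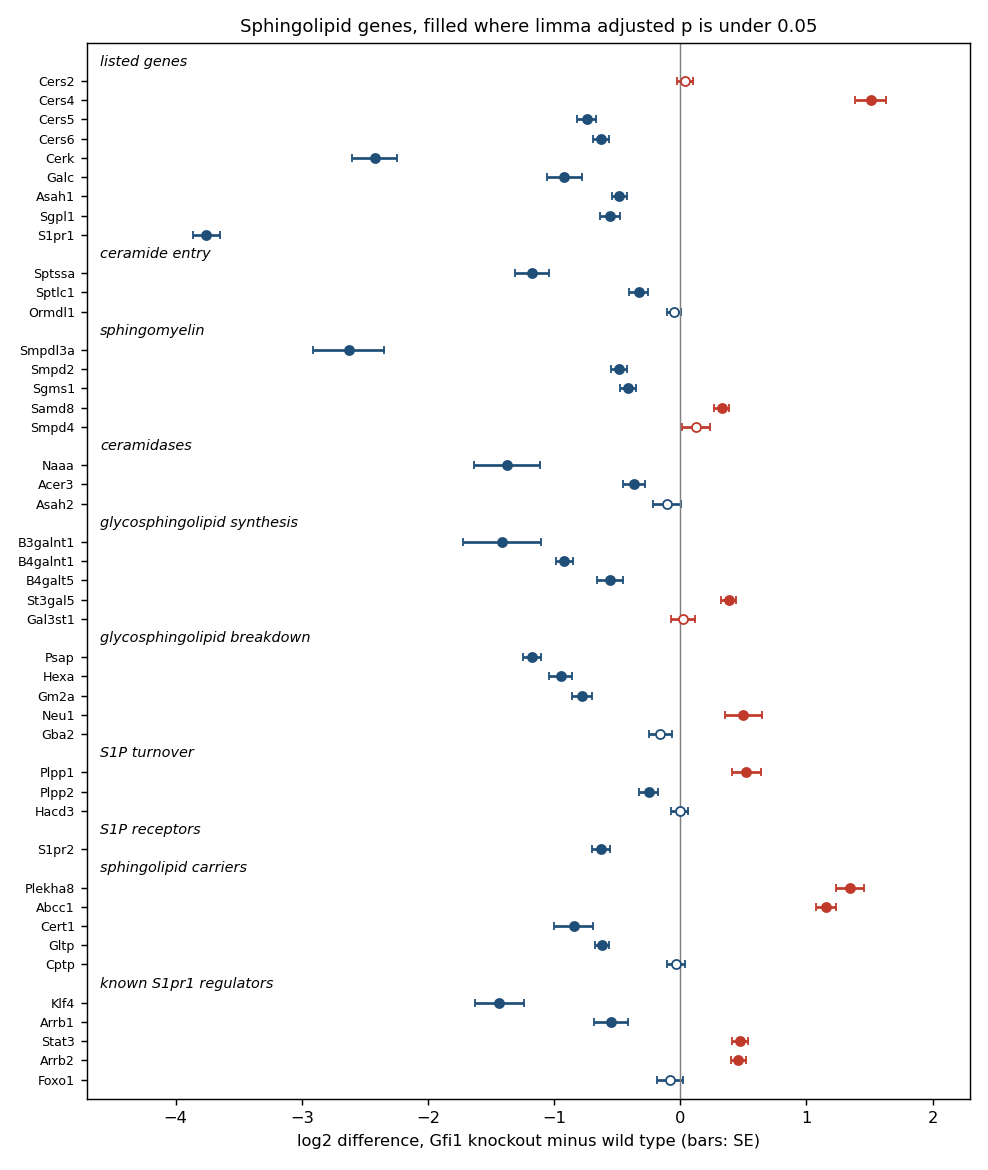
Log2 difference, Gfi1 knockout minus wild type, with its SE (horizontal axis) for the 9 measured listed genes and the named genes of the other sphingolipid lists. Filled points passed limma at an adjusted p of 0.05 and open points did not; red is higher and blue lower in knockout. S1pr1, Smpdl3a and Cerk lie furthest to the left, and Cers4, Plekha8 and Abcc1 furthest to the right.

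The list for sphingosine-1-phosphate turnover held 6 other measured genes (Sphk2, Sgpp1, Plpp1, Plpp2, Aldh3a2 and Hacd3). Of these 1 rose and 1 fell, against 43.1% of all genes past the threshold. They were the lipid phosphate phosphatase genes Plpp1 (0.52, SE 0.11, adjusted p = 0.00867) and Plpp2 (-0.25, SE 0.07, adjusted p = 0.0322). The call for Plpp2 ended without each of the 3 wild-type arrays and each of knockout replicates 2, 3 and 4 in turn (adjusted p from 0.0505 to 0.114). Hacd3 stood at -0.01 (SE 0.06, adjusted p = 0.953). The sphingosine kinase gene Sphk2, given here after its values were seen, was at 0.18 (SE 0.20, adjusted p = 0.487). Its dimmer probe set was at -0.27 (SE 0.08, adjusted p = 0.0270) in the fit over all probe sets. The receptor gene S1pr2 was the 1 other receptor measured, at 6.35, 6.42, 6.32 and 6.24 in the arrays labelled knockout, against 7.06, 6.91 and 6.92 in wild type. Its groups were apart, at a log2 difference of -0.63 (SE 0.07, adjusted p = 0.000579), and it did not pass with the pairs as random blocks (adjusted p = 0.0659).

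Of 6 measured genes for carriers and transporters of sphingolipids, 2 were higher and 2 lower by their brightest probe set. That is 66.7%, against 43.1% of all genes. The 2 lower are Gltp and Cert1, and the 4 probe sets of Cert1 disagree among themselves. Plekha8, a glucosylceramide carrier at the Golgi, had 7.22, 7.07, 6.89 and 6.78 in the arrays labelled knockout, against 5.71, 5.58 and 5.64 in wild type. Its brighter probe set was higher in every array labelled knockout (1.34, SE 0.11, adjusted p = 0.000181), while the other stood at -0.96 (SE 0.40, adjusted p = 0.0923), and their mean did not pass (adjusted p = 0.367). Abcc1, a transporter that can export sphingosine-1-phosphate, rose by 1.16 (SE 0.08, adjusted p = 7.53e-05). The glycolipid carrier gene Gltp fell by 0.62 (SE 0.06, adjusted p = 0.000261) and Cptp was at -0.03 (SE 0.07, adjusted p = 0.756).

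Cert1, which carries ceramide from the endoplasmic reticulum to the Golgi for sphingomyelin synthesis, had 4 probe sets that disagreed. The brightest gave 7.73, 7.84, 8.30 and 8.29 in the arrays labelled knockout, against 8.95, 8.87 and 8.84 in wild type. In the fit over all probe sets 2 were lower, at -0.85 (SE 0.16, adjusted p = 0.00590) and -0.50 (SE 0.09, adjusted p = 0.00550). The other 2 were higher, at 1.15 (SE 0.31, adjusted p = 0.0242) and 0.96 (SE 0.28, adjusted p = 0.0301). No direction is given for the gene as a whole.

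Among 8 measured genes known to act on S1pr1 transcription or receptor trafficking, 3 rose and 2 fell, or 62.5%, against 43.1% of all genes. Klf4, a Krüppel-like transcription factor, fell by 1.43 (SE 0.19, adjusted p = 0.00132). The beta-arrestin genes, whose proteins bind activated receptors, went opposite ways, Arrb1 at -0.55 (SE 0.14, adjusted p = 0.0156) and Arrb2 at 0.46 (SE 0.06, adjusted p = 0.00107). The call for Arrb1 ended without wild-type replicate 1 (adjusted p = 0.0619), and it was at -0.36 without knockout replicates 1 and 2 (adjusted p = 0.0113). Stat3 rose by 0.47 (SE 0.06). Foxo1 was at -0.08 (SE 0.10, adjusted p = 0.543), and without knockout replicates 3 and 4 it passed at -0.23 (adjusted p = 0.0206). Klf2, which drives S1pr1 in mouse T cells and was named here after its values were seen, had 6.75, 6.31, 7.40 and 7.56 in the arrays labelled knockout and 7.31, 7.17 and 7.21 in wild type. Its groups overlapped, with replicates 1 and 2 below wild type and replicates 3 and 4 above it (-0.23, SE 0.29, adjusted p = 0.563).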

How the data were processed

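The authors deposited 1 column of normalized signal intensity per array for 19431 probe sets, on a linear scale as the range of values shows. Absence of a gene from these values does not show that the array lacks a probe set for it. RMA, which corrects background, normalizes between arrays and summarises probes, is named without a version per the submitters' processing notes; it removes array-wide shifts. Median intensity was 93.8 to 101 per array. No detection calls were used, and array number limits precision. Probe sets were named from the platform's annotation: 17335 had 1 symbol, 532 had several and 1564 were unnamed, and the last 2 kinds were left out. The probe set with the highest mean log2 value over all 7 arrays stood for each of 9999 genes.

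Log2 values were compared with limma 3.58.1 in R 4.3.3 (two-sided, Benjamini-Hochberg adjustment over all genes) and checked on simulated data. A second fit over all one-symbol probe sets gave the other probe sets' values. The alternatives, listed in the closing section, were other normalizations, filters, priors, weights, probe set rules, blocks and left-out arrays. The members and lists were chosen with earlier results of these data known. Named from the other lists are up to 4 genes past the threshold by size, and the smallest difference among the rest, and for cell type lists the brightest marker.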

Additional observations from a re-analysis of the deposited data

Results flagged for a closer look

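Among 45 genes tested for a single array standing apart from the other 3 arrays labelled knockout, 3 met the limit. For independent arrays chance gives about 1 in 20, and these arrays formed pairs. For B4galnt1, knockout replicate 1 had a log2 signal of 6.64 against 6.47 to 6.50 in the others. For Gal3st1, knockout replicate 1 had 4.03 against 4.24 to 4.26. For Gba2, knockout replicate 3 had 4.73 against 5.01 to 5.05. None of the 9 listed sphingolipid genes met the limit. A gene whose knockout arrays split into the separate pairs, such as Cerk, cannot meet it.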

How the results depend on the processing

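Of all genes 4305 passed; 904 did so with the wild-type arrays and each knockout pair as random blocks, 6814 without knockout replicates 3 and 4, and 2879 to 4465 without any 1 array. Of the other pathway genes 30 passed, 12 with the random blocks, and 26 to 31 without any 1 array. Of the 9 listed genes 8 passed without any 1 array, 7 when probe sets were averaged, 6 with the random blocks, and 6 of the 7 left by a filter under the 40th percentile, which removes S1pr1 and Cers4. Cers2 turned to -0.030 without knockout replicates 3 and 4. The dim Galc and Sgpl1 probe sets gave 0.079 and 0.46. Cert1 turned to 0.19 and Hacd3 to 0.13 with the mean of probe sets. Smpd4 was -0.026 and Foxo1 0.060 without knockout replicates 1 and 2. Without replicates 3 and 4, Gal3st1 was -0.034, Hacd3 0.039 and Cptp 0.019, and Smpd4 and Foxo1 passed at 0.28 and -0.23 (adjusted p = 0.0132 and 0.0206). Gal3st1 was -0.0060 with median centring, and with array weights, which did not converge fully, Gal3st1 was -0.045 and Hacd3 0.0080. With a replicate block Hacd3 was 0.0095 and Cptp 0.0052. Without any 1 array Gal3st1 ran from -0.070 to 0.077, Hacd3 from -0.035 to 0.035 and Cptp from -0.058 to 0.015. The cause of these changes was not tested. Quantile normalization and an intensity trend with a robust prior changed no call among the listed genes and the genes named from the other lists by size of difference.

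Groups share replicate numbers 1 to 3, but same-numbered arrays had correlations of their deviations from the group mean of 0.12, -0.09 and 0.11, so the numbers were not taken as pairs. With a replicate block 3805 genes, 8 listed genes and 28 other pathway genes passed, and Sptlc1, Acer3 and Plpp2 did not (adjusted p = 0.0632, 0.0578 and 0.127). Low signal limits S1pr1 in knockout and Cers4 and Gfi1 in wild type, for which no detection calls were used.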
